A study of Mus musculus with 20 samples.

Results

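The genes described here are 38 mouse genes of the heat shock response and of the endoplasmic reticulum (ER) stress response, of 49315 genes in the deposited count tables. They were given as a list of symbols, and each symbol matched 1 identifier. Of these, 11 encode cytosolic or nuclear heat shock proteins and their regulator, 2 encode the mitochondrial chaperonins, and 25 encode ER proteins or sensors and transcription factors of the unfolded protein response. The question set for these genes was how the cytosolic heat shock genes compared with the ER genes. Expression was measured by RNA sequencing of eosinophils, granulocytes armed with toxic granule proteins, that were sorted by flow cytometry from mouse lung, with 3 to 5 mice pooled per library. The labels list 20 samples in 4 groups of 5, and the text below uses the day 7 grafts without costimulatory blockade (n = 5) and the resting lungs (n = 5). The day 7 group was sorted from Balb/c lungs carried for 7 days by C57BL/6 recipients, and the labels give the infiltrating eosinophils as the recipient's own. The resting group came from untreated C57BL/6 mice. Costimulatory blockade withholds from T cells the accessory signals needed for their activation, and the titles state that the day 7 group used here did not receive it, while its treatment field leaves the agent blank. Donor and recipient strains differ, whereas the resting lungs were neither transplanted nor mismatched, so surgery, mismatch and time after grafting cannot be told apart in this comparison.

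Total counts were 15695074 to 26683784 per day 7 library and 6666577 to 12883144 per resting library. The groups stood in separate deposited tables, so a difference between tables cannot be told apart from a difference between groups. Nothing in the labels says that pools came from independent experiments, and p-values therefore measure the spread between pools. Eosinophil surface markers were present in all libraries: Siglecf averaged 222 ± 70.2 CPM (counts scaled to the library's size, with TMM factors) at day 7 and 148 ± 34.5 CPM in resting lung, and Ccr3 averaged 443 ± 254 CPM at day 7 and 356 ± 141 CPM in resting lung (mean ± SD, n = 5 each, as for all means below). The granule gene Prg2 averaged 81.5 ± 52.7 CPM at day 7 and 463 ± 186 CPM in resting lung. Of 10 eosinophil markers examined, 2 were called higher and 5 lower at day 7 (calls defined below), all 5 by at least 2-fold. Over all genes tested 23.3% were called higher and 23.4% lower. In bulk libraries of this kind, fewer cells of a type and less RNA per cell cannot be told apart.

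Cells answer misfolded protein in separate ways according to the compartment. In the cytosol and nucleus, the transcription factor HSF1 is held back by HSP70 and HSP90 and is released when unfolded protein occupies them, after which it activates Hspa1a, Hspa1b, Hspb1, Dnajb1 and related genes through heat shock elements. In the ER, the sensors IRE1 (Ern1), PERK (Eif2ak3) and ATF6 (Atf6) are held back by the chaperone BiP (Hspa5), and their release leads to XBP1 splicing, ATF4 translation and ATF6 cleavage, which raise transcripts for ER chaperones, degradation factors and CHOP (Ddit3). Eosinophil precursors make large amounts of granule protein in the ER, and XBP1 is known to be required for the eosinophil lineage in mice.

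A sequence known from promoters of ER chaperone genes is the ER stress response element (ERSE, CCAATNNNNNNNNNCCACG), here searched on both strands of the RefSeq windows on GRCm38.p6 that run from 250 bases before to 50 bases after a gene's start. It was found in 39 of 32851 windows (0.119%). Of 16 ER chaperone and folding genes 14 had a window, and 7 of these held the element. The sites are shown because they are all of the exact matches among the 38 genes, written 5′ to 3′ on the strand that reads CCAAT, with the fixed letters in capitals.
Hspa5: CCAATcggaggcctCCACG
Hsp90b1 distal: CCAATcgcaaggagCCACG
Hsp90b1 proximal: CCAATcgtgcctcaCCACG
Pdia6: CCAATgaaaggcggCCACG
Calr: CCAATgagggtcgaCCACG
Canx: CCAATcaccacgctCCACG
Dnajc3: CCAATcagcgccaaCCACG
Creld2: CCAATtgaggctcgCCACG

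The lower-case letters are free in the search, while the flanks are fixed by it. The sites begin between 65 and 212 bases before the RefSeq start. The Hspa5 site is at chr2:34772025-34772043 on the plus strand, within the promoter stretch of 250 bases before the RefSeq start of the BiP gene (chr2:34771840-34772089, plus strand), printed here with the element in capitals.
Hspa5 promoter: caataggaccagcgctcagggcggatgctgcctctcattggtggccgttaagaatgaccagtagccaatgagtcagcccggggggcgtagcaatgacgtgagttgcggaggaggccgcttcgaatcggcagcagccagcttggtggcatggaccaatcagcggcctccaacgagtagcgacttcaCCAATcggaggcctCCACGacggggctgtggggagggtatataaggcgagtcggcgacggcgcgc

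The heat shock element, searched as GAANNTTCNNGAA on both strands, stood in 198 windows (0.603%). Of the 38 genes 31 had a window, but of the 11 cytosolic genes only 7 did. The search takes exact matches alone, so elements with other letters or outside the windows would be missed. A gene without a match is therefore not shown to lack the element. Among genes with a window, 3 held this heat shock element, namely Hsph1 and the mitochondrial pair Hspe1 and Hspd1. The pair is transcribed in opposite directions from a common stretch and shares 2 overlapping matches, at chr1:55088059-55088071 on the minus strand and chr1:55088064-55088076 on the plus strand. The stretch around them (chr1:55088038-55088097, plus strand) is shown with the bases GAA and TTC of these matches in capitals.
Hspe1 and Hspd1 promoter: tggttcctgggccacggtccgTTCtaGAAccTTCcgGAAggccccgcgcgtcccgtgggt

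The amino acid response element (searched as TGATGNAA, both strands) stood in 1304 windows (3.97%), among them those of Herpud1 and Trib3. A match describes letters in the window and not binding. Hspa1a and Hspa1b, the inducible HSP70 pair, are adjacent copies on chromosome 17 whose coding sequences were 99.4% identical. Reads from coding sequences so similar can be split between the copies by counting. The promoters of the pair lie before the gene starts and do not bear on that split. They agreed at 247 of 250 positions and are shown with the 3 bases at which they differ in capitals.
Hspa1a promoter (chr17:34972157-34972406, minus strand): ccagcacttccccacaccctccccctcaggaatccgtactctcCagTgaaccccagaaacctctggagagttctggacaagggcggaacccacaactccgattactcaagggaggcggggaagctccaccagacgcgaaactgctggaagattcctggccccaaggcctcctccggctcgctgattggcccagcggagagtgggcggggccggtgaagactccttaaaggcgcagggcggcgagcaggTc
Hspa1b promoter (chr17:34959239-34959488, minus strand): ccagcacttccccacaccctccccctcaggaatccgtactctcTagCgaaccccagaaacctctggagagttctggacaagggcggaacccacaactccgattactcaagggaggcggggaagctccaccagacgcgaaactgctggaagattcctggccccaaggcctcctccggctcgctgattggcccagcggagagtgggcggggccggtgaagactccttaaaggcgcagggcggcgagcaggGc

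In the day 7 grafts without blockade, 5 of 11 cytosolic or nuclear heat shock genes fell, all by at least 2-fold (Hspa1a, Hspa1b, Hspb1, Dnajb1 and Bag3), and 6 were not called. Of 25 ER genes 18 rose and 1 fell (Herpud1), and both mitochondrial chaperonin genes rose. Calls are those of edgeR's quasi-likelihood test at an adjusted p below 0.05, adjusted over 16500 genes tested. All 38 genes passed the filter on low counts, and their lowest count in any library was 18. Across all genes tested 23.3% rose and 23.4% fell, or 46.7% in either direction, and 9.08% rose and 16.3% fell by at least 2-fold. Among the 9026 tested genes with a mean of at least 10 CPM, 31.8% rose and 20.2% fell (52.1% in either direction), with 9.44% rising and 10.2% falling by at least 2-fold.

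The median log2 fold change (day 7 minus resting) was -0.07 for the 11 cytosolic genes, 0.83 for the mitochondrial pair and 0.79 for the 25 ER genes, against 0.05 over all genes tested and 0.13 over those of at least 10 CPM. Scaling by library totals alone placed the median of all genes at -0.14, that of the cytosolic genes at -0.27 and that of the ER genes at 0.59, with 5 cytosolic genes called lower and 14 ER genes called higher, against 29.6% lower and 15.1% higher over all genes in that fit. Every day 7 library was below every resting library for 4 of 11 cytosolic genes, and above every resting library for 14 of 25 ER genes. Over all genes tested, 18.7% were separated with day 7 below and 16.4% with day 7 above (35.1% in all), and among those of at least 10 CPM 16.0% were separated with day 7 below and 23.5% with day 7 above (39.5% in all).

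**Figure D1:**
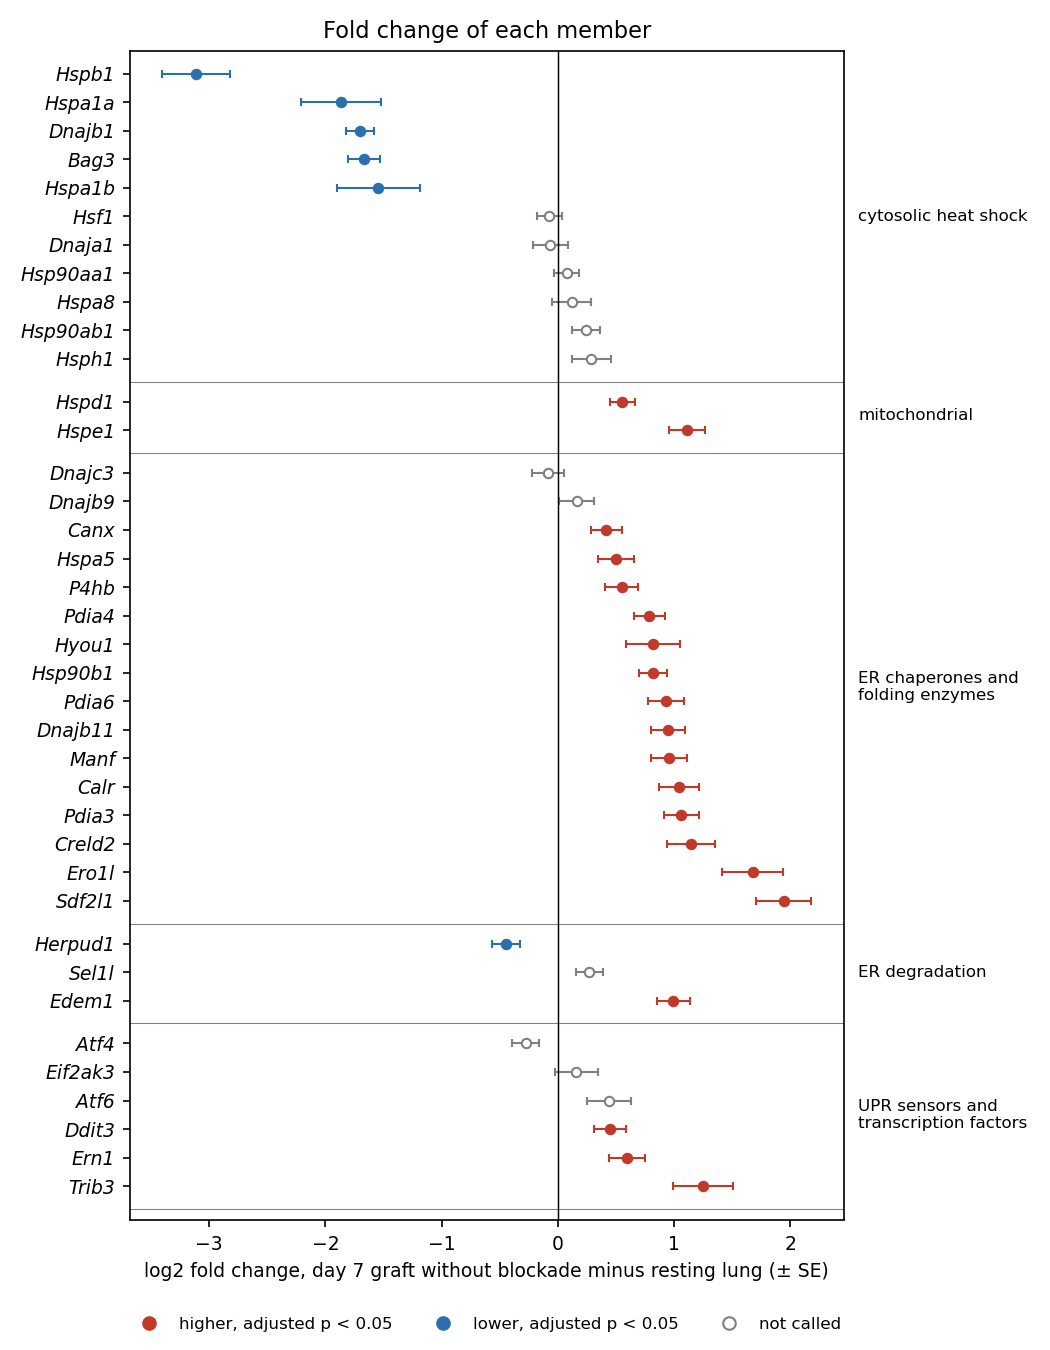
Log2 fold change (day 7 grafts without blockade minus resting lung, ± SE) of each of the 38 genes, grouped by role; red marks genes called higher, blue genes called lower and open grey circles genes not called. The 5 called cytosolic genes lie between -3.11 and -1.55, and the 18 called ER genes on the right lie between 0.42 and 1.94.

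Among the cytosolic genes, Hspb1 had the largest fall. It encodes HSP27, a small heat shock protein that holds unfolded proteins and binds actin (ENSMUSG00000004951, chromosome 5, 135887919 to 135889563, plus strand, mm10). Hspb1 was at 21.5, 5.06, 17.1, 14.2 and 16.5 CPM in day 7 replicates 1 to 5, and at 144, 111, 121, 149 and 119 CPM in resting replicates 1 to 5. Every day 7 library was far below every resting library, and day 7 replicate 2 was the lowest. Hspb1 averaged 14.9 ± 6.09 CPM at day 7 and 129 ± 16.5 CPM in resting lung, and it fell by 3.11 ± 0.29 on the log2 scale (SE, edgeR quasi-likelihood adjusted p = 1.87e-06), 8.66-fold higher in resting lung.

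Dnajb1 encodes HSP40, the J-domain partner that stimulates the ATPase of HSP70 and stands among the most heat-responsive genes (ENSMUSG00000005483, chromosome 8, 83608193 to 83612653, plus strand). Dnajb1 was at 74.3, 73.6, 69.4, 62.3 and 60.2 CPM in day 7 replicates 1 to 5, and at 234, 187, 253, 234 and 196 CPM in resting replicates 1 to 5. The day 7 libraries lay close together and all below the lowest resting library. Dnajb1 fell by 1.70 ± 0.12 on the log2 scale (edgeR adjusted p = 8.95e-08), with means of 67.9 ± 6.43 CPM at day 7 and 221 ± 27.9 CPM in resting lung. Bag3 encodes a nucleotide exchange factor that links HSP70 to small heat shock proteins and to selective autophagy (ENSMUSG00000030847, chromosome 7, 128523616 to 128546981, plus strand). Bag3 was at 13.0, 11.98, 10.3, 11.99 and 11.5 CPM in day 7 replicates 1 to 5, and at 41.4, 29.1, 37.2, 45.8 and 33.5 CPM in resting replicates 1 to 5. The groups did not overlap, and the day 7 values were nearly equal to each other. Bag3 fell by 1.67 ± 0.14 on the log2 scale (edgeR adjusted p = 4.3e-07), with means of 11.7 ± 0.97 CPM at day 7 and 37.4 ± 6.54 CPM in resting lung.

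The inducible HSP70 genes are the classical readout of HSF1 activity, and both varied widely between the day 7 libraries. Hspa1a (ENSMUSG00000091971, chromosome 17, 34969190 to 34972156, minus strand) was at 40.6, 67.5, 16.7, 22.9 and 22.8 CPM in day 7 replicates 1 to 5, and at 119, 73.4, 149, 130.2 and 149.8 CPM in resting replicates 1 to 5. Day 7 replicate 2 was the highest of its group and resting replicate 2 the lowest of its own, and the groups still did not overlap. Hspa1a fell by 1.87 ± 0.35 on the log2 scale (edgeR adjusted p = 0.000664), with means of 34.1 ± 20.7 CPM at day 7 and 124 ± 31.4 CPM in resting lung. Hspa1b (ENSMUSG00000090877, chromosome 17, 34956436 to 34959238, minus strand) was at 53.4, 81.9, 18.7, 31.2 and 35.1 CPM in day 7 replicates 1 to 5, and at 109.6, 66.0, 161, 158 and 148 CPM in resting replicates 1 to 5. Here day 7 replicate 2 lay above resting replicate 2, so the groups overlapped. Hspa1b fell by 1.55 ± 0.36 on the log2 scale (edgeR adjusted p = 0.00308), with means of 44.0 ± 24.5 CPM at day 7 and 129 ± 40.5 CPM in resting lung. With day 7 replicates 4 and 5 left out, its adjusted p was 0.0535 at a log2 fold change of -1.30. Hspa1a held 43.5 ± 2.94% of the pair's summed CPM at day 7 and 49.7 ± 3.06% in resting lung, a split that depends on how reads matching both copies were counted, and 19.0% of its exon bases are shared with a gene annotated on the opposite strand.

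The 6 other cytosolic genes were not called. Hspa8, the constitutive HSP70 that folds new proteins and uncoats clathrin (ENSMUSG00000015656, chromosome 9, 40800984 to 40810087, plus strand), had the highest CPM of the 11. It was at 1169, 1460.4, 1114, 758 and 876 CPM in day 7 replicates 1 to 5, and at 1073, 899, 962, 1042 and 979 CPM in resting replicates 1 to 5. The day 7 values spread widely around the narrow resting range. The log2 fold change of Hspa8 was 0.12 ± 0.17 (edgeR adjusted p = 0.594). The HSP90 genes Hsp90aa1 and Hsp90ab1, the HSP110 gene Hsph1, the J-domain gene Dnaja1 and the regulator Hsf1 had log2 fold changes between -0.07 and 0.29, and all overlapped between groups. No cytosolic gene was called higher by edgeR, 0 had an unadjusted p below 0.05 with a higher level, and DESeq2 and limma-voom also called 0. Over all genes DESeq2 called 23.6% higher and 25.3% lower, and limma-voom 25.0% higher and 25.0% lower. Without day 7 replicate 4, however, Hsph1 (log2 fold change 0.41, edgeR adjusted p = 0.0371) and Hsp90ab1 (0.33, adjusted p = 0.0336) passed as higher.

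Summed over each library, the 5 genes that fell amounted to 173 ± 46.6 CPM at day 7 and 640.2 ± 103 CPM in resting lung, whereas the 6 other cytosolic genes amounted to 2474 ± 313 CPM at day 7 and 2283 ± 52.8 CPM in resting lung. The sums of the 5 fallen genes describe genes selected by their call and carry no test. With the same scaling, all genes tested summed to 1069560 ± 46187 CPM at day 7 and 936153 ± 34126 CPM in resting lung. Sums over many genes were thus higher at day 7 in general. Within the resting group, replicate 2 was the lowest library for 9 of the 11 cytosolic genes.

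The mitochondrial chaperonins HSP60 (Hspd1) and HSP10 (Hspe1) form the folding chamber of the matrix, and both genes rose. Hspe1 (ENSMUSG00000073676, chromosome 1, 55088132 to 55091307, plus strand) was at 37.2, 41.4, 40.7, 27.3 and 40.5 CPM in day 7 replicates 1 to 5, and at 14.8, 17.3, 17.7, 22.6 and 14.4 CPM in resting replicates 1 to 5. Hspe1 rose by 1.11 ± 0.15 on the log2 scale (edgeR adjusted p = 5.19e-05), with means of 37.4 ± 5.89 CPM at day 7 and 17.4 ± 3.25 CPM in resting lung. Replicate 4 was the lowest day 7 library and the highest resting library, and the groups did not overlap. Hspd1 (ENSMUSG00000025980, chromosome 1, 55077835 to 55088243, minus strand) was at 104, 94.5, 97.0, 78.5 and 87.1 CPM in day 7 replicates 1 to 5, and at 61.0, 53.9, 66.3, 69.8 and 63.2 CPM in resting replicates 1 to 5. Hspd1 rose by 0.55 ± 0.11 (edgeR adjusted p = 0.00086), with means of 92.2 ± 9.73 CPM at day 7 and 62.8 ± 5.99 CPM in resting lung. All day 7 libraries were above all resting libraries. The annotation names 5 pseudogenes after Hspe1 and 4 after Hspd1, with which reads could be shared.

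Of the 16 ER chaperone and folding genes 14 rose, 5 of them by at least 2-fold, with a median log2 fold change of 0.87. The largest rise was that of Sdf2l1, a partner of the J-domain protein ERdj3 that keeps BiP substrates soluble (ENSMUSG00000022769, chromosome 16, 17130138 to 17132383, minus strand). Sdf2l1 was at 81.9, 121, 102, 57.7 and 60.0 CPM in day 7 replicates 1 to 5, and at 19.2, 16.6, 19.9, 33.3 and 21.4 CPM in resting replicates 1 to 5. Even the lowest day 7 library exceeded the highest resting library, replicate 4. Sdf2l1 rose by 1.94 ± 0.24 on the log2 scale (edgeR adjusted p = 2.06e-05), 3.84-fold, with means of 84.5 ± 27.3 CPM at day 7 and 22.1 ± 6.49 CPM in resting lung.

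Ero1l, named Ero1a in newer annotation, encodes the oxidase that passes disulfide bonds to protein disulfide isomerase and is known as a target of both CHOP and hypoxia (ENSMUSG00000021831, chromosome 14, 45283087 to 45318771, minus strand). Ero1l was at 415, 226, 145, 140.2 and 201 CPM in day 7 replicates 1 to 5, and at 75.9, 76.6, 71.9, 61.3 and 67.3 CPM in resting replicates 1 to 5. Day 7 replicate 1 stood well above the other day 7 libraries, and the groups did not overlap. Ero1l rose by 1.68 ± 0.26 (edgeR adjusted p = 0.000167), with means of 226 ± 112 CPM at day 7 and 70.6 ± 6.39 CPM in resting lung, and leaving out single libraries gave log2 fold changes of 1.35 to 1.82. Creld2, an ER-resident protein that acts on disulfide bonds (ENSMUSG00000023272, chromosome 15, 88819646 to 88826683, plus strand), was at 76.8, 82.0, 88.5, 44.1 and 54.1 CPM in day 7 replicates 1 to 5, and at 28.0, 32.3, 25.4, 43.9 and 27.2 CPM in resting replicates 1 to 5. The groups of Creld2 met without crossing, at day 7 replicate 4 and resting replicate 4. Creld2 rose by 1.14 ± 0.21 (edgeR adjusted p = 0.000478), with means of 69.1 ± 19.1 CPM at day 7 and 31.4 ± 7.48 CPM in resting lung.

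Pdia3 and Calr work together on glycoproteins: calreticulin binds the trimmed sugar, and the disulfide isomerase ERp57 is recruited to it. Pdia3 (ENSMUSG00000027248, chromosome 2, 121413775 to 121438687, plus strand) was at 754, 893, 844, 597 and 529.5 CPM in day 7 replicates 1 to 5, and at 361, 332, 322, 365 and 352 CPM in resting replicates 1 to 5. Calr (ENSMUSG00000003814, chromosome 8, 84841850 to 84846934, minus strand) was at 679, 825, 733, 492 and 457 CPM in day 7 replicates 1 to 5, and at 315, 267, 305, 368 and 292 CPM in resting replicates 1 to 5. For both genes replicates 4 and 5 were the lowest day 7 libraries, and neither gene overlapped between groups. Pdia3 rose by 1.06 ± 0.15 (edgeR adjusted p = 5.85e-05), with means of 724 ± 156 CPM at day 7 and 347 ± 18.6 CPM in resting lung. Calr rose by 1.04 ± 0.17 (adjusted p = 0.000205), with means of 637 ± 158 CPM at day 7 and 309 ± 37.2 CPM in resting lung. Both encode peptide-loading partners of MHC class I as well as folding factors.

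Hspa5 encodes BiP, the HSP70 of the ER and the usual marker of the unfolded protein response (ENSMUSG00000026864, chromosome 2, 34771970 to 34777547, plus strand). Hspa5 was at 1223, 1437, 1175, 902 and 842 CPM in day 7 replicates 1 to 5, and at 742, 799.7, 887, 716 and 797 CPM in resting replicates 1 to 5. Day 7 replicate 5 lay below resting replicate 3, so the groups overlapped at that pair. Hspa5 rose by 0.50 ± 0.15 (edgeR adjusted p = 0.0165), a 1.42-fold difference with means of 1116 ± 244 CPM at day 7 and 788 ± 65.9 CPM in resting lung. This call was lost under scaling by library totals alone (0.30, adjusted p = 0.0846) and with resting replicates 1 and 4 left out (0.46, adjusted p = 0.0663).

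The 8 other chaperone genes that rose had log2 fold changes of 0.42 to 0.96: the lectin gene Canx at the lower end, then the disulfide isomerases P4hb (0.55), Pdia4 (0.79) and Pdia6 (0.93), the HSP90 paralog Hsp90b1 (0.82), the HSP110 relative Hyou1 (0.82), the J-domain gene Dnajb11 (0.95) and the secreted factor Manf at the upper end. Canx lost its call without day 7 replicate 3 (log2 fold change 0.38, edgeR adjusted p = 0.0504), and under library totals alone both Canx (0.22, 0.171) and P4hb (0.35, 0.0507) did. P4hb and Hyou1 overlapped between groups, while Hsp90b1, Pdia4, Pdia6, Canx, Dnajb11 and Manf did not. The J-domain genes Dnajb9 (0.16 ± 0.15, adjusted p = 0.403) and Dnajc3 (-0.08 ± 0.14, adjusted p = 0.643) were not called. Of the 7 chaperone genes with an exact ERSE match 6 rose, all but Dnajc3. Of the 7 with a window but no exact match 6 rose as well, all but Dnajb9. Elements with other letters or outside the window count as absent here, so this split cannot show whether the element bears on the rise.

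**Figure D2:**
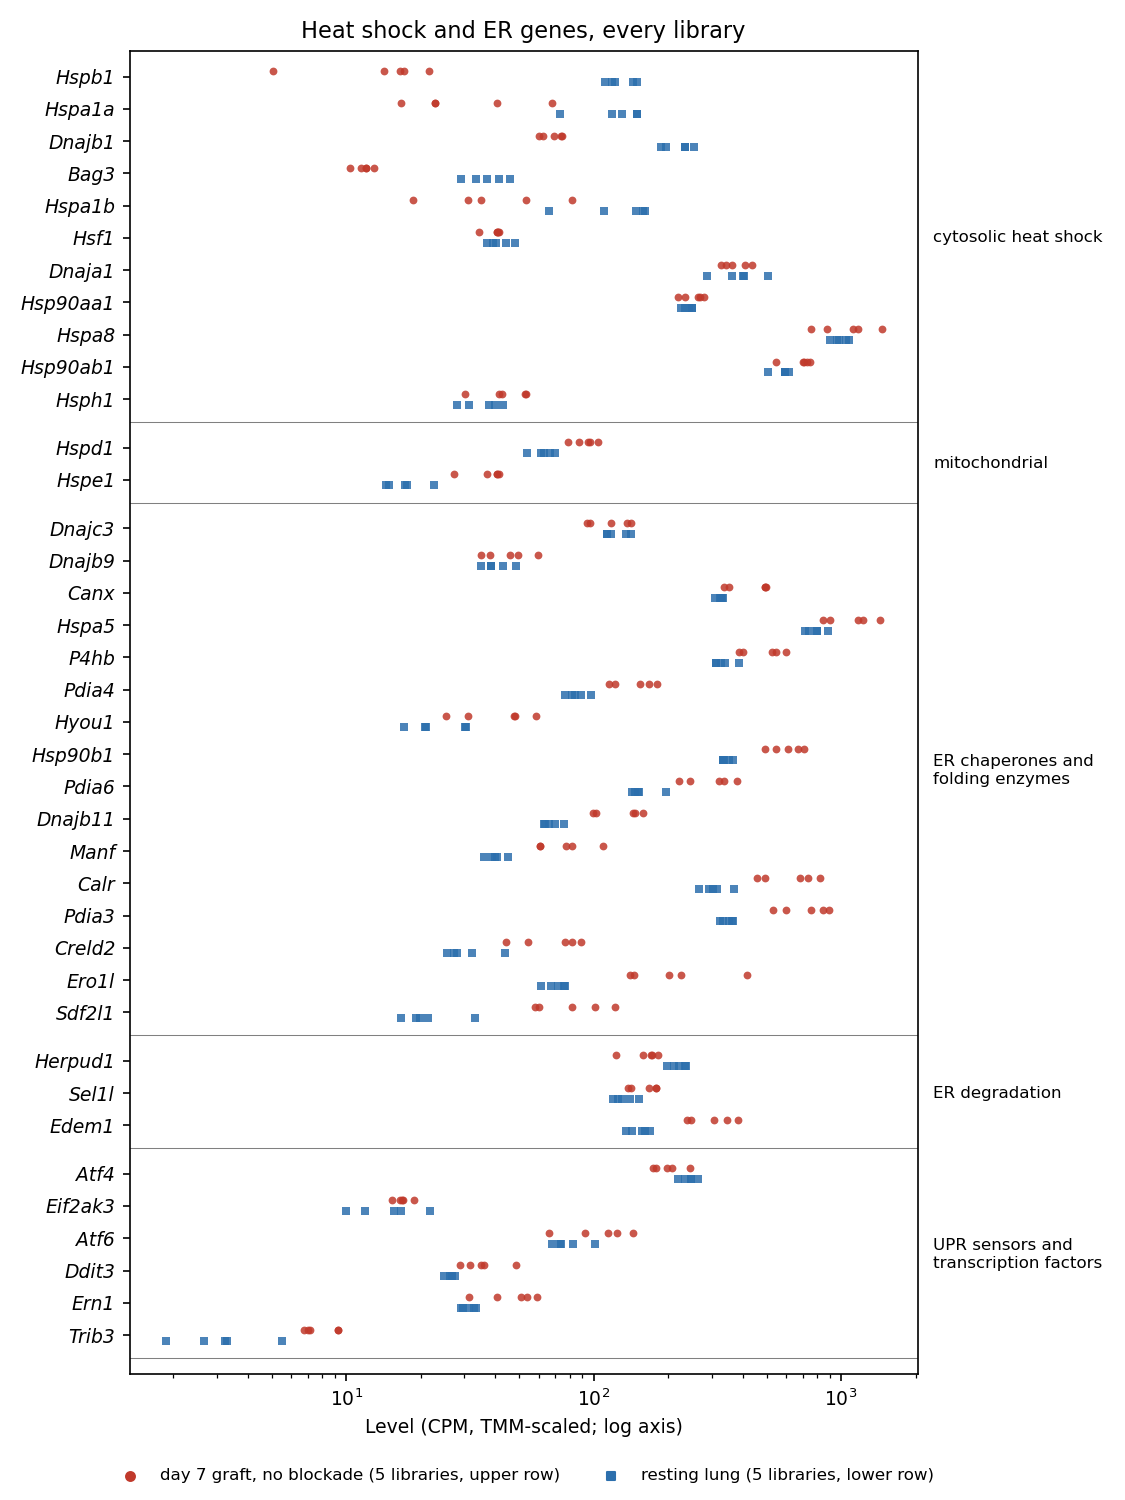
Level of each of the 38 genes in every library (CPM, log axis), with the 5 day 7 libraries as red circles in the upper row of each gene and the 5 resting libraries as blue squares in the lower row. Hspb1, Dnajb1 and Bag3 show day 7 circles well to the left of the squares, and Sdf2l1 and Ero1l show them to the right.

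The 3 genes of ER-associated degradation did not share a direction. Edem1 encodes a lectin-like mannosidase factor that hands misfolded glycoproteins to the retrotranslocation machinery (ENSMUSG00000030104, chromosome 6, 108828641 to 108859356, plus strand). Edem1 was at 382, 345, 306, 246 and 238 CPM in day 7 replicates 1 to 5, and at 135, 142, 169, 156 and 161 CPM in resting replicates 1 to 5. The groups did not overlap. Edem1 rose by 0.99 ± 0.14 (edgeR adjusted p = 7.38e-05), with means of 304 ± 62.1 CPM at day 7 and 153 ± 13.7 CPM in resting lung. Herpud1, a ubiquitin-like membrane protein of the same machinery, fell by 0.44 ± 0.12 on the log2 scale (edgeR adjusted p = 0.00757), with 123 to 182 CPM at day 7 and 198 to 235 CPM in resting lung. Without a filter on low counts this call was lost (-0.33, adjusted p = 0.0517). Its window held a match to the amino acid response element, as did that of Trib3. Sel1l, the scaffold of the HRD1 ubiquitin ligase, was not called (0.27 ± 0.11, adjusted p = 0.0703). Its call changed to higher without day 7 replicate 4, day 7 replicate 5 or resting replicate 5, with adjusted p of 0.0452, 0.0294 and 0.0484 in that order.

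Of the 6 genes of the sensors and transcription factors 3 rose, with a median log2 fold change of 0.44. For comparison, 23.3% of all genes tested rose, and 31.8% of those of at least 10 CPM. Ern1, which encodes the sensor and XBP1 splicing enzyme IRE1, rose by 0.59 ± 0.15 (edgeR adjusted p = 0.00651), with 31.3 to 58.9 CPM at day 7 and 29.0 to 33.3 CPM in resting lung. Ddit3, the gene of the pro-apoptotic factor CHOP, rose by 0.45 ± 0.14 (adjusted p = 0.0153), with 28.8 to 48.7 CPM at day 7 and 24.7 to 27.4 CPM in resting lung. This call was lost under scaling by library totals alone (0.25, adjusted p = 0.117). Trib3, a pseudokinase gene induced by ATF4 and CHOP, rose by 1.25 ± 0.26 (adjusted p = 0.00127) at low levels of 6.74 to 9.26 CPM at day 7 and 1.86 to 5.51 CPM in resting lung. Ddit3 and Trib3 did not overlap between groups, whereas Ern1 did, at day 7 replicate 5.

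The mRNAs of the sensors ATF6 and PERK and of ATF4 were not called. Atf4, a transcription factor gene regulated mainly in translation (ENSMUSG00000042406, chromosome 15, 80255184 to 80257541, plus strand), had the highest CPM of these 6. Atf4 was at 207, 244, 198, 178 and 173 CPM in day 7 replicates 1 to 5, and at 264, 248, 234, 220.2 and 246 CPM in resting replicates 1 to 5. Only day 7 replicate 2 reached into the resting range. The log2 fold change of Atf4 was -0.28 ± 0.12 (edgeR adjusted p = 0.0668, or 0.0233 without day 7 replicate 2), with means of 200.2 ± 28.2 CPM at day 7 and 242 ± 16.3 CPM in resting lung. DESeq2 (adjusted p = 0.0226) and limma-voom (0.0293) called Atf4 lower. Atf6 had a log2 fold change of 0.44 ± 0.19 (edgeR adjusted p = 0.0707), which passed without day 7 replicate 5 (0.00523) or without resting replicate 4 (0.0328), and limma-voom called it higher (0.50, adjusted p = 0.0161). Eif2ak3, the PERK gene, had a log2 fold change of 0.16 ± 0.19 (edgeR adjusted p = 0.523).

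Compared per length as TPM, several of the 38 genes changed place by 10 or more ranks. Hspb1 was at 31.2 ± 13.4 TPM at day 7 (rank 29) and 279 ± 40.4 TPM in resting lung (rank 4). Dnajb1 (rank 24 at day 7, 12 in resting lung), Hspa1b (28 at day 7, 14 in resting lung) and Hspa1a (31 at day 7, 17 in resting lung) also moved down. Sdf2l1 (11 at day 7, 24 in resting lung) and Ero1l (18 at day 7, 29 in resting lung) moved up. The 5 highest at day 7 were Hspa5 (561 ± 111 TPM), Hspa8 (530.0 ± 119), Pdia3 (490.4 ± 101), Hsp90ab1 (488 ± 56.6) and Calr (470.1 ± 109), neighbours that did not differ beyond their SDs. In resting lung the highest were Hspa8 (514 ± 49.2 TPM), Hsp90ab1 (432 ± 38.4) and Hspa5 (415 ± 29.6), of which Hsp90ab1 and Hspa5 lay within their SDs.

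Summed over each library, the 25 ER genes amounted to 6971, 7567, 6868, 5074 and 4967 CPM in day 7 replicates 1 to 5, and to 4032, 3867, 4068, 4135 and 3979 CPM in resting replicates 1 to 5. Day 7 replicates 4 and 5 were nearest to the resting level. Both lay below replicates 1 to 3 in 21 of 25 ER genes and in 2 of 11 cytosolic genes. This order was not counted over all genes tested, so it is not shown to be particular to the ER genes. In whole libraries, replicates 4 and 5 were the most alike day 7 pair (chi-square 21.6 per degree of freedom). The ratio of summed ER to summed cytosolic CPM was 1.94 to 2.62 at day 7 and 1.34 to 1.44 in resting lung. The SD as a percent of the mean had a median over the ER genes of 21.3% at day 7 and 9.20% in resting lung, and was larger at day 7 for 23 of 25. Over the cytosolic genes the median was 12.2% at day 7 and 12.8% in resting lung, with 7 of 11 larger at day 7. The share of all genes tested was not counted. Pairs of whole libraries differed by chi-square of 21.6 to 115 per degree of freedom at day 7 and 5.95 to 21.3 in resting lung, values that grow with depth. With day 7 replicates 4 and 5 left out, an alternative added after the data were seen, 21 ER genes were called higher. In that fit 4 cytosolic genes were called lower and 2 higher, against 24.7% higher and 25.8% lower over all genes. The libraries left out had the lowest ER sums at day 7, so more ER calls could follow from that choice alone. The count of 21 therefore lends no separate support to the rise. With resting replicates 1 and 4 left out, likewise added after the data were seen, 18 ER genes were called higher and 5 cytosolic genes lower, against 19.7% higher and 19.8% lower over all genes.

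**Figure D3:**
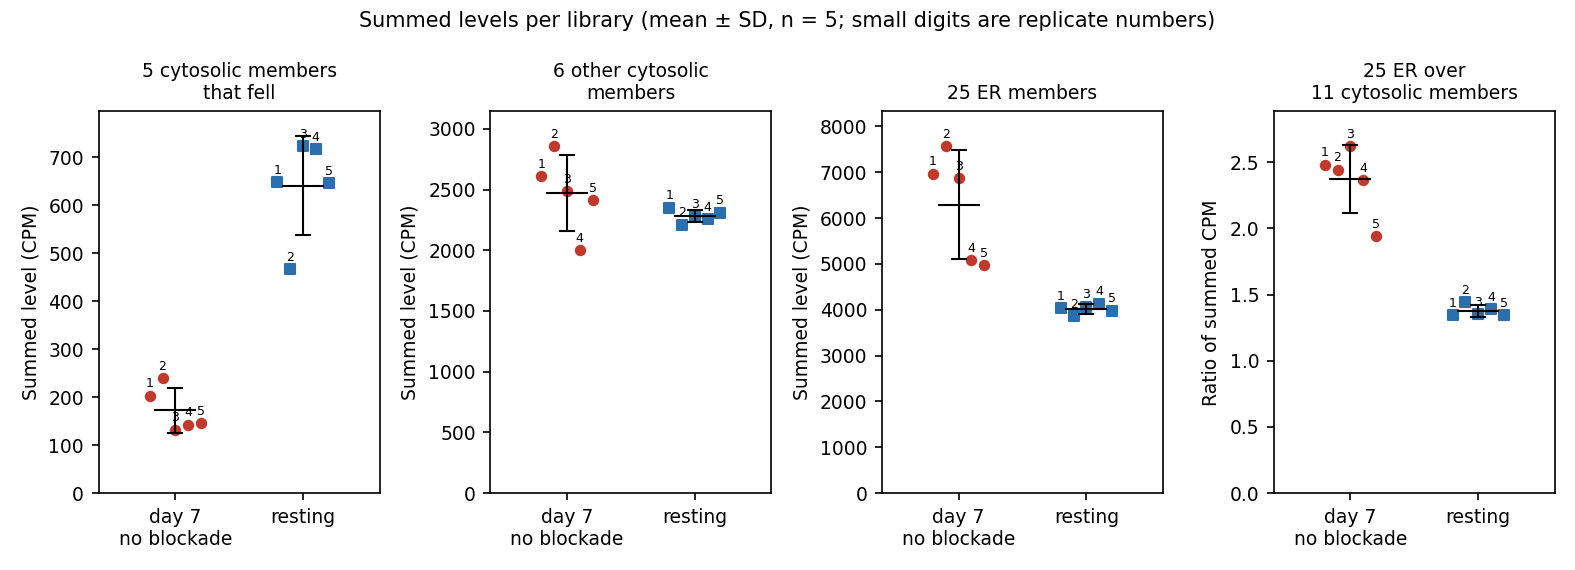
Summed CPM per library of the 5 cytosolic genes that fell, the 6 other cytosolic genes and the 25 ER genes, and the ratio of ER to cytosolic sums, with day 7 libraries left of resting libraries and bars for mean ± SD. The ER sum is 4967 to 7567 CPM at day 7 and 3867 to 4135 CPM in resting lung, with day 7 replicates 4 and 5 lowest in their group.

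Markers of other cells moved with the same groups. Their counts, here and in the next paragraph, stand beside 31.8% higher and 20.2% lower among tested genes of at least 10 CPM. Of 14 markers of monocytes and interstitial macrophages 13 rose, and their summed level was 8071, 12654, 8163, 5660 and 5798 CPM in day 7 replicates 1 to 5, against 2689 to 3499 CPM in resting lung. That sum was also lowest in day 7 replicates 4 and 5, whereas the sum of 10 eosinophil markers was highest there, at 911, 1055, 1530, 2299 and 3121 CPM in day 7 replicates 1 to 5 and 1597 to 2999.7 CPM in resting lung (2 of 10 rose and 5 fell). All 12 T cell markers rose, with sums of 395 to 973 CPM at day 7 and 124 to 184 CPM in resting lung, and so did 8 of 8 genes of cycling cells, with sums of 243 to 321 CPM at day 7 and 129 to 168 CPM in resting lung. Of 8 plasma cell markers 7 were tested and 4 rose, with sums of 158 to 319 CPM at day 7 and 70.9 to 108 CPM in resting lung. Of 7 dendritic cell markers 3 rose and 1 fell, with sums of 227 to 301 CPM at day 7 and 156 to 226 CPM in resting lung. All 6 B cell markers fell, with sums of 154 to 236 CPM at day 7 and 305 to 453 CPM in resting lung. Of 6 alveolar macrophage markers 1 rose and 4 fell, with sums of 524 to 1268 CPM at day 7 and 1280.5 to 2034 CPM in resting lung. Of 10 neutrophil markers 3 fell, and their sums of 4804 to 9678 CPM at day 7 and 8529 to 11570 CPM in resting lung exceeded those of the eosinophil markers in every library, sums that are not scaled for transcript length, although the libraries are labelled as eosinophils. The part of these cells in the rise of the ER genes was not tested.

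Beside the fall of the 5 heat shock genes, all 10 endothelial markers fell, with sums of 83.1 to 164 CPM at day 7 and 2031 to 2709.6 CPM in resting lung. All 10 epithelial markers fell as well, with sums of 32.0 to 454 CPM at day 7 and 3329 to 5971 CPM in resting lung. Day 7 replicate 2 was lowest in both sums and had the least Hspb1, but it had the most Hspa1a and Hspa1b of the day 7 libraries and the highest sum of the 5 fallen genes (240.0 CPM, against 132 to 203 CPM in the other day 7 libraries). Of 6 fibroblast markers 2 rose and 1 fell, with sums of 123 to 643 CPM at day 7 and 387 to 505 CPM in resting lung. All 5 red cell genes fell. No marker of these lists was at 0 in every library of a group, and the part of endothelial and epithelial cells in the fall of Hspb1 and the other heat shock genes was not tested. The share of reads from Balb/c donor cells was likewise not measured.

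Other genes of the same pathways are given beside the shares of all tested genes of at least 10 CPM, 31.8% higher and 20.2% lower. Of 26 other cytosolic chaperones and cochaperones 11 rose and 5 fell, with a median log2 fold change of 0.24. The falls were those of the small heat shock genes Cryab, Hspb8 and Hspb6 and the J-domain genes Dnaja4 and Dnajb4. Cryab, the alpha B-crystallin gene, fell by 4.08 ± 0.21 on the log2 scale (edgeR adjusted p = 7.78e-09), with means of 3.64 ± 1.22 CPM at day 7 and 61.8 ± 8.88 CPM in resting lung. Dnajb4 fell by 1.52 ± 0.13 (adjusted p = 6.81e-07), whereas Hspa14, a ribosome-associated HSP70, rose by 0.66 ± 0.11 (adjusted p = 0.000166). All 8 subunit genes of TRiC, the cytosolic chaperonin that folds actin and tubulin, rose, with a median of 0.54 and a range of 0.42 to 0.78. Cct8 rose most among them, with means of 238 ± 27.9 CPM at day 7 and 139 ± 10.01 CPM in resting lung.

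Of 10 further mitochondrial chaperone and protease genes 3 rose and 1 fell, with a median of 0.14. Hspa9, the mitochondrial HSP70, rose by 0.58 ± 0.14 (edgeR adjusted p = 0.00312) and Grpel1, its nucleotide exchange factor, by 0.36 ± 0.11 (adjusted p = 0.0189), whereas the J-domain gene Dnaja3 fell by 0.41 ± 0.15 on the log2 scale (adjusted p = 0.0375). Of 23 genes of ER import and N-glycosylation 15 rose and 2 fell, with a median of 0.43. Ostc, a subunit of the oligosaccharyltransferase, rose by 0.66 ± 0.09 (adjusted p = 3.59e-05), and the signal peptidase subunits Spcs2 (0.66 ± 0.11) and Spcs3 (0.57 ± 0.10) rose as well. Of 17 other genes of the IRE1, XBP1 and degradation pathways 6 rose and 1 fell, with a median of 0.12 and a range of -1.47 to 0.83. The rises included Edem2 (0.83 ± 0.13), Ero1lb (0.77 ± 0.13) and Selenos (0.71 ± 0.14). None of the rises reached 2-fold, whereas the fall did. Xbp1 itself, whose splicing these counts do not resolve, was at 250.3 ± 44.4 CPM at day 7 and 241 ± 29.3 CPM in resting lung (adjusted p = 0.781).

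Of 30 known targets of ATF4 and CHOP 29 were tested, 12 rose and 7 fell, with a median of 0.41. Mthfd2, a mitochondrial folate enzyme, rose by 1.76 ± 0.21 (edgeR adjusted p = 1.63e-05) and Wars, the tryptophanyl-tRNA synthetase gene that interferon also induces, by 1.01 ± 0.13 (adjusted p = 2.03e-05). Atf3, a stress-induced repressor, fell by 2.04 ± 0.19 (adjusted p = 1.06e-06), with means of 199.5 ± 44.3 CPM at day 7 and 821 ± 173 CPM in resting lung. Atf3 is also an immediate early gene, and of 14 other immediate early genes known to be induced while tissue is dissociated 10 fell and 1 rose, with a median of -0.85. Jun fell by 2.02 ± 0.18 (adjusted p = 1.02e-06), Fosb by 1.86 ± 0.17 (adjusted p = 8.42e-07) and Ier2 by 1.12 ± 0.18 (adjusted p = 0.000186) on the log2 scale. The summed level of these 14 genes was 5929.7 to 10057 CPM at day 7 and 10478 to 13662 CPM in resting lung, without overlap. Heat shock genes of the HSP70 family are also known to be induced during dissociation, and the part of tissue handling in their fall was not tested.

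**Figure D4:**
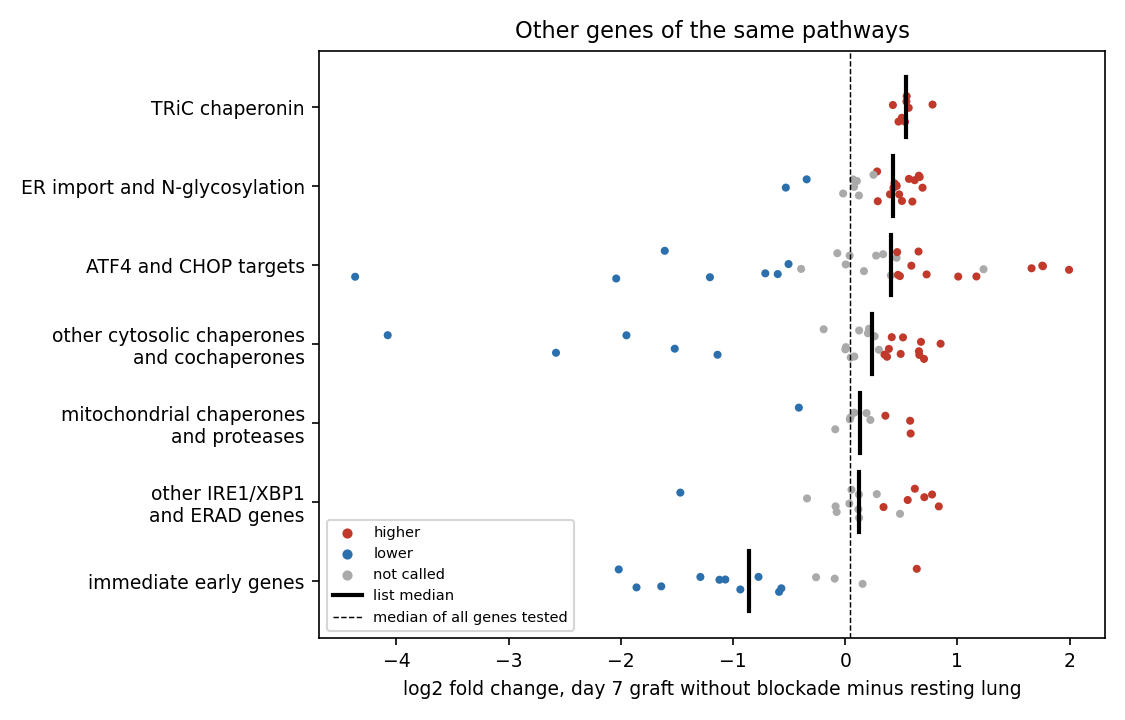
Log2 fold change (day 7 grafts without blockade minus resting lung) of the genes of 7 related pathway lists, one dot per tested gene, red for genes called higher, blue for lower and grey for not called, with a black bar at each list's median and a dashed line at the median of all genes tested. All 8 TRiC genes lie to the right of the dashed line at 0.05, and most immediate early genes lie to the left.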

How the data were processed

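Libraries were made from Trizol-extracted RNA with the NEBNext Ultra II kit, per the labels' protocols. The submitters' processing notes name bcl2fastq 2.17, Trimmomatic 0.36, STAR 2.5.2b, featureCounts, Subread 1.5.2 and the build mm10. The authors deposited raw counts per gene, with no normalization. No strand setting and no rule for reads with several matches is given in the sources used. Values of near-identical copies are therefore uncertain, as are those of the 11 members that share 0.549% to 19.0% of their exon bases with a gene on the opposite strand. With overlaps on the same strand included, 13 members share exon bases with another gene. Same-strand overlaps were 6.09% for Hspa8, 5.38% for Hsp90b1 and 6.13% for Ddit3, the last with a second annotated entry of the same name.

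Columns were tied to samples by name. A further 10 columns, headed by bare numbers, were not used, and groups given blockade are not analysed here. Symbols and mm10 coordinates (1-based gene spans) came from GENCODE M21, and promoter windows from RefSeq on GRCm38.p6. In day 7 libraries 3 counts equalled 0.112 to 0.191 CPM, and in resting libraries 0.233 to 0.450 CPM, limits that reflect counting error alone. Replicates differed beyond sampling noise in all 20 within-group pairs (lowest chi-square 5.95 per degree of freedom).

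Genes were filtered with filterByExpr by group (16500 tested, 32815 removed) and tested in edgeR 4.0.16 (R 4.3.3) with TMM scaling, the robust quasi-likelihood F test, group as the only term and Benjamini-Hochberg adjustment, at a threshold of 0.05. The standard error is the size of the log2 fold change over the square root of F. TPM used the union of exon lengths. The test was tried on simulated data in which far fewer genes changed than were called here. It called 58.0% of genes with a true log2 fold change of 1 and 54.2% of those at -1. At 2 and -2 it called 96.0% and 95.3%. A member not called may therefore still have changed by 2-fold or less. DESeq2 1.42.0 and limma 3.58.1 were alternatives. The members and all gene lists were chosen with earlier results of these data known. Values in every library are printed for members called with at least 2-fold change and 10 CPM in the higher group and for the member with the highest CPM in each role. In pathway lists the named genes are the 3 or fewer with the smallest adjusted p among those with 20 CPM, while Hspb6, Hspb8, Dnaja4 and Xbp1 were named after their values were seen.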

Additional observations from a re-analysis of the deposited data

Results flagged for a closer look

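Each of the 38 genes was examined in each group of 5 libraries for a single library set apart from the rest by Dixon's criterion (critical value 0.71), 76 groups in all. Dixon's criterion picked out 5 values, and chance alone gives about 5% of groups. Hsp90ab1 was lowest in day 7 replicate 4 (547 CPM), against 704 to 747 CPM in the other day 7 libraries. Hsp90ab1 was also lowest in resting replicate 2 (507 CPM). Hsf1 was lowest in day 7 replicate 3 (34.5 CPM). In resting replicate 4, Pdia6 (196 CPM) and Sdf2l1 (33.3 CPM) were higher than in the other resting libraries.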

How the results depend on the processing

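Each member was recomputed under 19 other settings, of which 10 left out 1 library. Of the 26 called members 20 kept their call in every setting, no called member changed direction, and 5 of the 12 members not called were called in none. The exceptions among called members were Hspa1b, Hspa5, P4hb, Canx, Herpud1 and Ddit3. Library totals alone ended the calls of Hspa5, P4hb (0.35, edgeR adjusted p = 0.0507), Canx (0.22, 0.171) and Ddit3 (0.25, 0.117), and testing without a filter on low counts ended that of Herpud1 (-0.33, 0.0517).

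The number of cytosolic genes called higher was 2 with no filter and with day 7 libraries 1 to 3 alone, and ranged from 0 to 2 when single libraries were left out. The number of ER genes called lower was 2 with DESeq2, RLE factors, library totals alone or limma-voom, 0 with no filter, and 1 to 2 when single libraries were left out. The median log2 fold change of the cytosolic genes was -0.17 with day 7 libraries 1 to 3 alone, -0.27 with library totals alone, 0.042 with no filter and -0.20 with resting libraries 2, 3 and 5 alone. That of the mitochondrial pair was 0.64 with library totals alone. The same scaling moved the median of all genes tested from 0.05 to -0.14, so a downward shift in that setting was not particular to these members. The cause of these shifts was not tested.

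Replicate numbers were shared between the groups, but same-numbered libraries did not deviate together (correlations of -0.188 to 0.120, 1 of 5 above 0.1). No pairing by number was seen, although such a check cannot exclude one. With the replicate number as a block, 17 ER genes were called higher and 1 lower, and 5 cytosolic genes lower, against 20.1% higher and 22.0% lower over all genes. Canx was not called in that fit (0.40, adjusted p = 0.0581). The resting libraries were the shallower ones, and the lowest member count was 18, for Trib3.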
